A study of Mus musculus with 28 samples.

Results

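The genes with the symbols Zfp700 to Zfp999 belong to the zinc finger genes of the mouse, and they were followed here through the H3K27ac peaks that named them. A peak was included if its gene field held, alone or in a comma-separated list, a symbol between Zfp700 and Zfp999. Of 471458 peaks in 12 H3K27ac libraries, 2237 met this rule, and they named 94 of the 19162 genes in the tables. RefSeq lists 128 symbols of this range; 93 of the 94 genes matched by symbol and Zfp862 by a synonym, and the other 35 symbols were not analysed here. The peaks came from ChIPmentation, in which a transposase adds sequencing adapters to immunoprecipitated chromatin, of germ cells from C57BL/6 testes. Thy1+ and c-Kit+ spermatogonia were taken at postnatal day 7 from wild-type (WT) and Scml2 knockout (KO) mice, and adult KO mice gave pachytene spermatocytes (PS) and, at the next stage, round spermatids (RS). Cells were isolated with magnetic beads or by sedimentation. Each of these 6 groups had 2 libraries, and 16 input libraries showed where signal arises without the antibody. H3K27ac in WT PS and WT RS was not analysed here, so every adult value is from KO cells and age, cell isolation and stage change together between c-Kit+ cells and PS.

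Zinc finger proteins of this kind bind DNA through arrays of fingers, each of which contacts a few bases. Many carry a KRAB domain, which recruits the co-repressor TRIM28 and through it the histone H3K9 methyltransferase SETDB1, and many of their targets are transposable elements. Their genes arose by repeated duplication and often lie side by side. H3K27ac, the acetylation of lysine 27 on histone H3, marks active promoters and enhancers, and SCML2 is a germ cell Polycomb protein.

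Runs of at least 3 member genes separated by no more than 500000 bp were called clusters. By this definition 55 of the 94 genes lay in 11 clusters on 6 chromosomes, and 39 lay outside them. The cluster with most genes was on chromosome 17 (21567046 to 22867134, mm10), with 10 genes from Zfp948 to Zfp945. A second chromosome 17 cluster (32765497 to 33033381) held Zfp871, Zfp811, Zfp799, Zfp870, Zfp952 and Zfp763. On chromosome 6 (47819266 to 48623227) 7 genes were found, among them Zfp746, which encodes the Parkin substrate PARIS, and on chromosome 8 one cluster (69209046 to 69774911) held 6 genes and another (71882068 to 71970333) held 3. Chromosome 13 carried a cluster of 3 (62129890 to 62558599) and one of 6 (67038594 to 67683512). Chromosome 7 carried a cluster of 3 (7114683 to 7209998) and a pair of clusters with 4 genes each (43177588 to 43618279 and 127244526 to 127406822). The cluster on chromosome 9 (22188166 to 22307638) comprised Zfp872, Zfp809, known for silencing retroviral DNA in embryonic cells, and Zfp810.

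The promoters on which the results below turn are shown first, as the 250 bases before the RefSeq start (GRCm38.p6), read 5′ to 3′ on the strand of the gene. Capitals mark CCAAT on either strand, the element bound by the factor NF-Y, which are shown because members held them more often than other promoters. Zfp945 (chr17:22867135-22867384, − strand) and Zfp763 (chr17:33033382-33033631, − strand) represent the chromosome 17 clusters, Zfp956 (chr6:47953140-47953389, + strand) and Zfp800 (chr6:28261925-28262174, − strand) are the promoters that were higher in PS by most, Zfp819 (chr7:43606919-43607168, + strand) was called in adult cells only, and Zfp869 (chr8:69716903-69717152, − strand) had the highest mean signal.
Zfp945: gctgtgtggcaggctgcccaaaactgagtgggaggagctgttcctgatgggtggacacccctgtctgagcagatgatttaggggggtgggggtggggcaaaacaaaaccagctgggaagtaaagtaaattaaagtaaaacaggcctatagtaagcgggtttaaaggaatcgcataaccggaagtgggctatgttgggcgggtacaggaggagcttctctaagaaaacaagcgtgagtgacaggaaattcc
Zfp763: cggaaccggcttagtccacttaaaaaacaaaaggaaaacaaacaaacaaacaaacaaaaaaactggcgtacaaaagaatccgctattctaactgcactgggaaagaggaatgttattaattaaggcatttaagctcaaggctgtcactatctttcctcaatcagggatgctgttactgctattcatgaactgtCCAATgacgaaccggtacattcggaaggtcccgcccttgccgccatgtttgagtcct
Zfp956: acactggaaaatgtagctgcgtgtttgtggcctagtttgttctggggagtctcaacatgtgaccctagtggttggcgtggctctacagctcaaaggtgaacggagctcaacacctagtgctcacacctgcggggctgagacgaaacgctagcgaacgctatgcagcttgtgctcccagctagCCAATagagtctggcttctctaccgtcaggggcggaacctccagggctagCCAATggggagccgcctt
Zfp800: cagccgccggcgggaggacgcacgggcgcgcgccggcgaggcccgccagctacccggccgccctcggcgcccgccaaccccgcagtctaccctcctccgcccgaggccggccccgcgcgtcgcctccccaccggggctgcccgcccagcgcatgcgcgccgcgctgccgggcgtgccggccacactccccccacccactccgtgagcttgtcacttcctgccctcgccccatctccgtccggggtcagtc
Zfp819: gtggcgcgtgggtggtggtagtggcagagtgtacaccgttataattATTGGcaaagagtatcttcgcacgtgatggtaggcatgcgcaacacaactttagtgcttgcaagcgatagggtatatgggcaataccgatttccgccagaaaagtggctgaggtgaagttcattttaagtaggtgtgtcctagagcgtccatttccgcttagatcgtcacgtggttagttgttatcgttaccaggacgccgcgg
Zfp869: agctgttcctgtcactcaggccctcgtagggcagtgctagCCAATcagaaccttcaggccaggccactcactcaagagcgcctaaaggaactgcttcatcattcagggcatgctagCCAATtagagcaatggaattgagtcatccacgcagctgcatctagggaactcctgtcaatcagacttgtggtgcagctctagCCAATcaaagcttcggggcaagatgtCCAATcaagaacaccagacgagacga
The 6 stretches differed widely in composition. That of Zfp800 was 80.0% G and C with 38 CG dinucleotides and no CCAAT, while that of Zfp763 was 42.4% G and C with 9 CG. CCAAT occurred 4 times before Zfp869, 2 times before Zfp956, 1 time each before Zfp763 and Zfp819, and not at all before Zfp945.

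Of the 94 genes, 82 matched an entry in the RefSeq promoter table (250 bases before to 50 after the start). CCAAT, searched on both strands, was present in 51 of the 82 member promoters (62.2%), against 37.4% of the 32851 promoters of the table and 38.9% of 239 promoters of other Zfp genes. The TATA letters TATAAA were present in 3.66% of member promoters and 13.6% of all. The median content of G and C was 52.8% for members and 52.7% for all promoters, whereas the median ratio of observed to expected CG was 0.58 for members and 0.38 for all. The 60 matched genes with a promoter peak in every library had a median of 12 CG per promoter, and the 22 others 7.5. CCAAT was held by 56.7% of the former and 77.3% of the latter. The letters for other factors, TGACGTCA (CRE), CCGGAAGT (ETS), AAGATGGCG (YY1), CAGTTG (MYB) and TTTCCCGC (E2F), and the NRF1 motif were each searched on both strands, do not contain one another, and were present in fewer than 10% of member promoters. Members and all promoters held CRE at 1.22% and 1.79%, ETS at 4.88% and 3.89%, and YY1 at 1.22% and 1.40%. For MYB the shares were 9.76% and 13.7%, for E2F 1.22% and 1.07%, and for NRF1 2.44% and 0.971%. None of these searches tests whether a factor binds.

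Promoter acetylation of these genes was widespread in all cell types sampled. A peak within 1000 bp of a listed start was called in all 12 libraries for 67 of the 94 genes (71.3%). The same was true of 49.5% of 18814 genes with a listed start and of 77.3% of 229 other Zfp genes. The number of member genes with such a peak ranged from 77 (Thy1+ WT replicate 2) to 87 (Thy1+ KO replicate 1 and PS KO replicate 1). Within a group, 29 promoter calls were made in replicate 1 alone and 4 in replicate 2 alone, and in every group replicate 1 had the higher background height, the indicator of depth that these files allow. Fold enrichment is the deposited ratio of peak height to background, and its mean over the 12 libraries ran from 6.77 at Zfp764 to 23.5 at Zfp869 among the 67 genes.

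**Figure D1:**
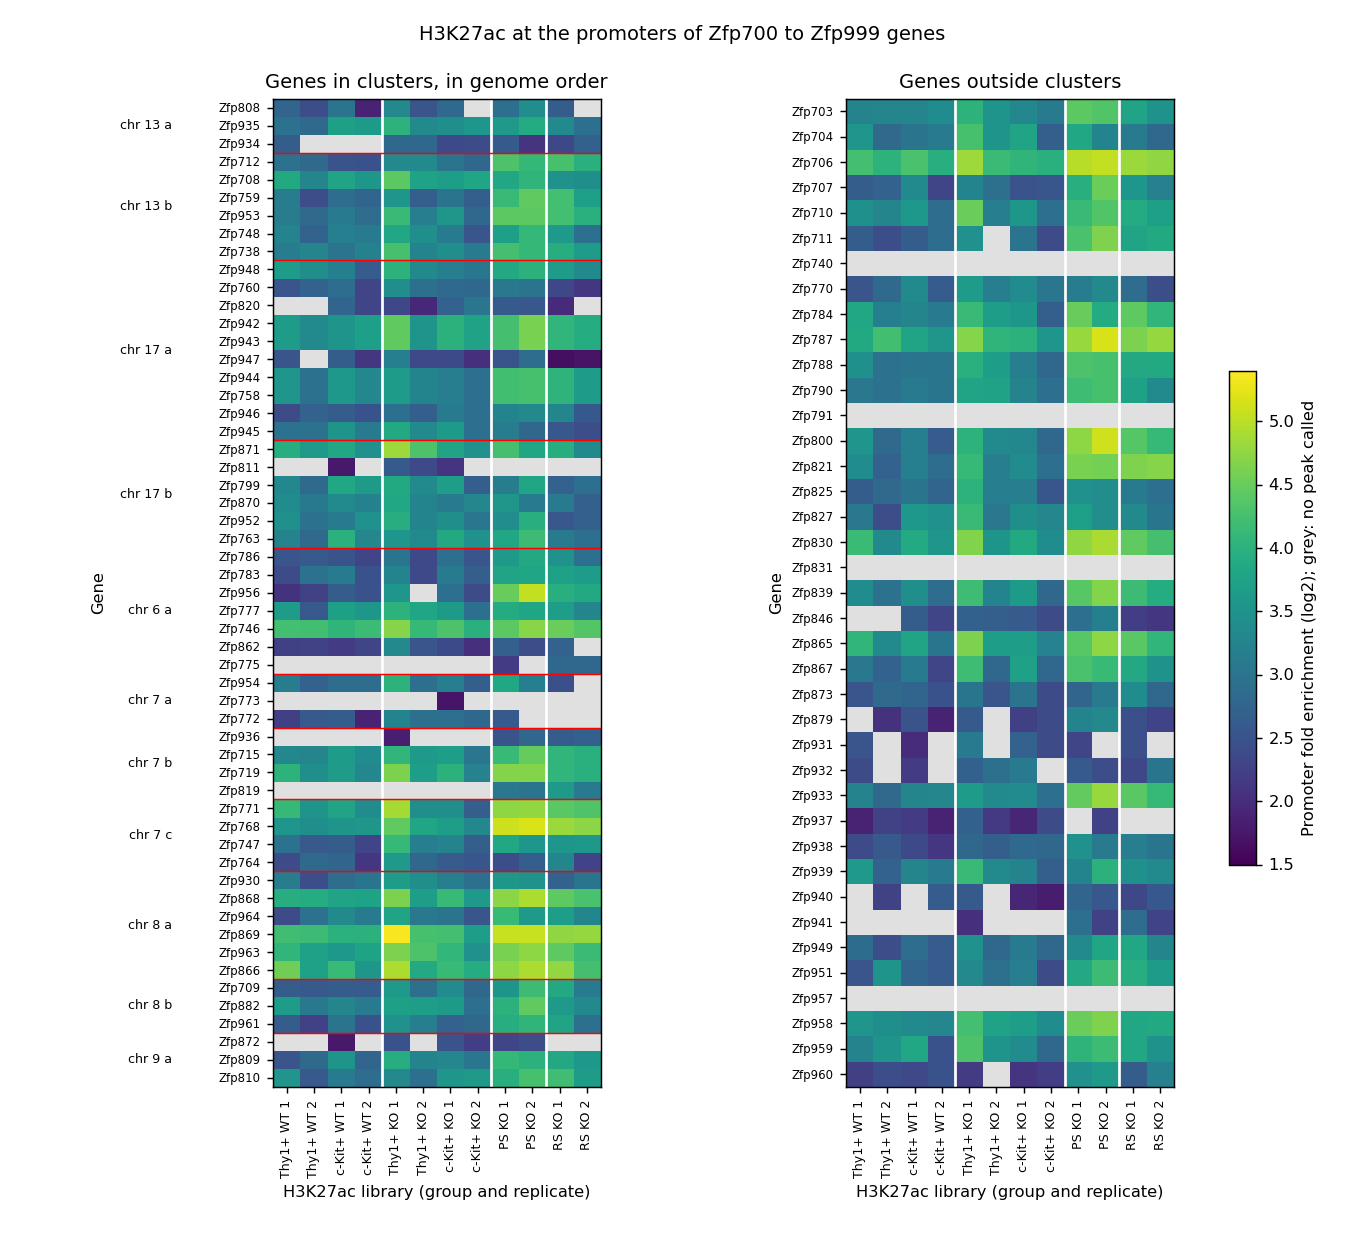
H3K27ac at the promoters of the 94 genes (rows) in the 12 libraries (columns), as log2 of the highest deposited fold enrichment within 1000 bp of a listed start; grey cells have no called peak. Most rows are filled in every column (67 of 94), and the columns of Thy1+ KO replicate 1 and both PS KO libraries are the brightest.

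Both clusters on chromosome 8, the cluster of 6 on chromosome 13 and the 127244526 to 127406822 cluster of chromosome 7 had a promoter peak at every gene in every library. In the chromosome 8 cluster of 6 genes, the highest mean was at Zfp869 and the lowest at Zfp930 (8.97). Zfp869 read 18.3 and 18.1 in Thy1+ WT, 16 and 16.1 in c-Kit+ WT, 41.0 and 19.2 in Thy1+ KO, 18.9 and 12.8 in c-Kit+ KO, 33.6 and 33.6 in PS KO and 27 and 27.6 in RS KO. All 4 adult values lay above 7 of the 8 spermatogonial ones, and Thy1+ KO replicate 1 was the highest of all. That library had the highest values at many promoters: its median over the called member promoters was 14.2, against 7.0 to 9.59 in the other 7 spermatogonial libraries. In the chromosome 13 cluster of 6, means lay between 10.2 (Zfp748) and 13.7 (Zfp708). In the chromosome 6 cluster, Zfp746 had a mean of 20.1 and Zfp786 of 7.88, and in the cluster of chromosome 7 that holds Zfp764, Zfp768 had a mean of 19.1.

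The chromosome 17 cluster of 10 held a promoter peak in every library at 8 genes; Zfp820 was called in 9 libraries and Zfp947 in 11. Zfp942 and Zfp943 start within 1000 bp of each other, and so do Zfp758 and Zfp944, so that each pair shares its promoter peaks and cannot be separated. The Zfp942 and Zfp943 promoter had the highest mean of this cluster, 15.5, and Zfp760 the lowest, 6.91. In the second chromosome 17 cluster, 5 genes were called in every library, with means from 9.68 (Zfp870) to 15.3 (Zfp871), and Zfp811 in 4 libraries. The cluster of 3 genes on chromosome 7 had no gene called throughout: Zfp954 was called in 11 libraries, Zfp772 in 9 and Zfp773 in 1.

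A few genes had promoter peaks at one end of spermatogenesis. At Zfp819, on chromosome 7 from 43607169 to 43618279 (+ strand), fold enrichment was 8.39 and 8.00 in PS KO and 12.1 and 8.66 in RS KO, and no peak was called in any of the 8 spermatogonial libraries. It was the 1 member gene called in all 4 adult and no spermatogonial library (1.06% of members), a pattern of 5.71% of all genes. Its neighbour Zfp936 was called in the 4 adult libraries at 5.72 to 6.93 and in Thy1+ KO replicate 1 at 3.54. Zfp941, outside clusters, was called at 4.80 to 7.63 in adult cells and at 4.05 in Thy1+ KO replicate 1. In the opposite direction, Zfp811 was called in 4 spermatogonial libraries at 3.42 to 6.08, Zfp773 in c-Kit+ KO replicate 1 at 3.31, and neither in adult cells. No member gene was called in all 8 spermatogonial libraries and none of the adult ones. The lowest fold enrichment called in a library was 3.05 to 3.84, close to the values of Zfp811 and Zfp773, so that a missing peak at such a gene does not show the absence of the mark.

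The listed start decided some of these patterns. Zfp740, Zfp791, Zfp831 and Zfp957 had no peak within 1000 bp of their listed start in any library. At Zfp740 (chromosome 15, 102208267 to 102215601, + strand), RefSeq gives starts at 102204000 and 102204571, which lay inside a region called in all 12 libraries at 7.03 to 20.8 and deposited as upstream. At Zfp791 (chromosome 8, 85109167 to 85123095, − strand), a second RefSeq start at 85119691 had a peak within 1000 bp in 9 libraries. Zfp775, called at its listed start (48613180) in 3 adult libraries at 4.58 to 7.04, had a RefSeq start at 48602007 with a peak in all 12 libraries. The region there read 9.43 and 5.43 in Thy1+ WT, 6.84 and 6.20 in c-Kit+ WT, 12.2 and 6.40 in Thy1+ KO, 5.2 and 5.25 in c-Kit+ KO, 13.7 and 11.7 in PS KO and 16 and 12.4 in RS KO. Zfp957 has its one RefSeq entry at the listed start, where no library had a peak.

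Peaks away from promoters were few in spermatogonia and many in adult cells. Promoter-class peaks naming a member gene numbered from 93 ± 0 in Thy1+ WT to 106.5 ± 2.12 in RS KO (SD, n = 2 each), and the other 4 group means lay between these. All other classes together numbered 26.0 ± 2.83 in Thy1+ WT, 47.0 ± 21.2 in c-Kit+ WT, 47.5 ± 21.9 in Thy1+ KO, 57.0 ± 24.0 in c-Kit+ KO, 165 ± 18.4 in PS KO and 179.5 ± 33.2 in RS KO (SD, n = 2 each). The adult libraries, from 152 to 203 such peaks, did not overlap the spermatogonial ones, from 24 to 74. Nor did they in peaks of all genes and classes, at 63322 to 73316 against 17877 to 36362. Peaks naming a member were 0.390% to 0.420% of all peaks in adult libraries and 0.458% to 0.693% in spermatogonial ones. PS KO replicate 2, with 152 peaks outside promoters, had a lower background height (0.876) than c-Kit+ KO replicate 1 (1.11), with 74. Within each group, replicate 1 had the higher background height and, except in Thy1+ WT, more such peaks. The part of depth in these counts was not tested. The promoter share of member peaks was 78.2% ± 1.86 in Thy1+ WT and 37.5% ± 4.82 in RS KO (SD, n = 2), beside 68.2% ± 2.61 and 24.8% ± 2.94 of all peaks.

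**Figure D2:**
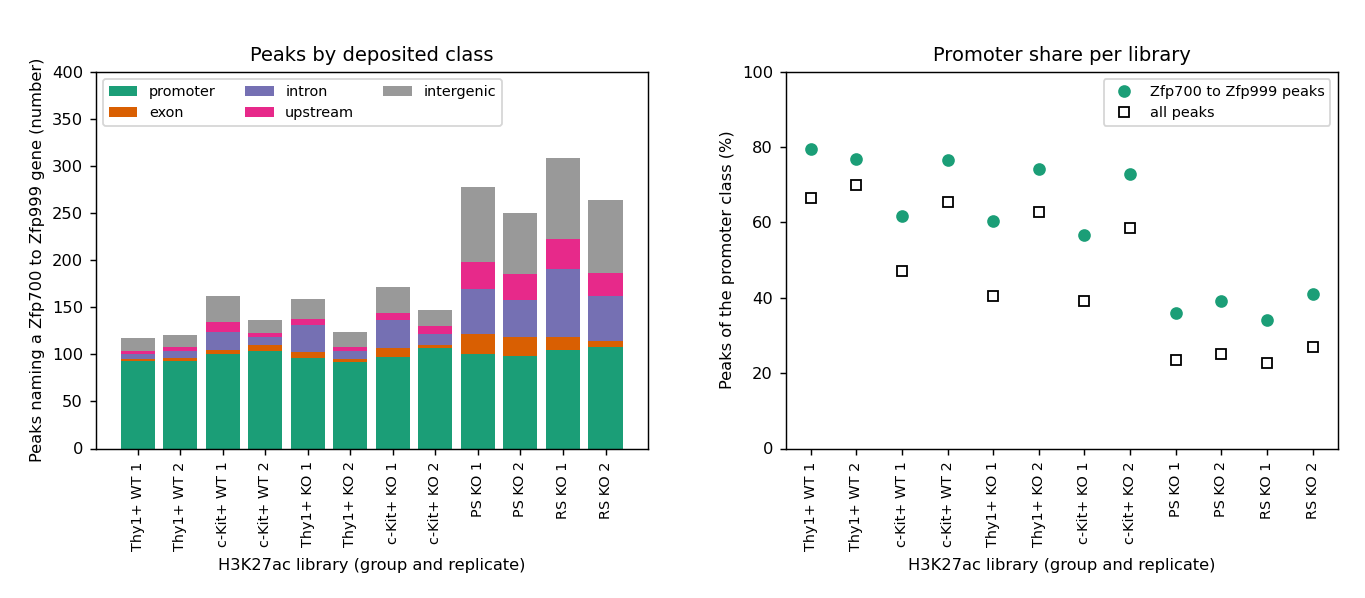
Left, number of peaks naming a Zfp700 to Zfp999 gene in each H3K27ac library, stacked by deposited class; right, percentage of the promoter class among these peaks (circles) and among all peaks (squares). Promoter-class peaks stay between 92 and 108 per library, while the other classes make up most of the peaks in the 4 adult libraries.

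Merged over the 12 libraries, the member peaks formed 445 regions, 103 of the promoter class and 342 of other classes. The 342 comprised 144 intergenic, 108 intron, 50 upstream and 40 exon regions, and the peak tables assign a region to its nearest gene, which is not evidence that it acts on that gene. Zfp710 was named by 39 of them, Zfp706, which encodes a small zinc finger protein, by 37, and Zfp703, a transcriptional co-repressor gene without KRAB domain, by 23. Of the 342, 15 (4.39%) were called in all 12 libraries, against 0.991% of 111192 regions of these classes in the whole set. A RefSeq start of some gene lay inside 10 of the 15 (66.7%; 23.0% for all regions called throughout), among them the starts of Zfp580 in a region listed under Zfp784 and of Zfp33b in one listed under Zfp951. Called in all 4 adult libraries and no spermatogonial one were 17 regions (4.97%; 4.74% of all), in both PS libraries alone 15 (4.39%; 5.43%), and in both RS libraries alone 21 (6.14%; 6.48%). No member region of these classes was called in all 8 spermatogonial libraries alone, as for 0.0027% of all.

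Among the 17 adult regions the strongest was intergenic, 44560 bp from the start of Zfp820 in the large chromosome 17 cluster (21800215 to 21802183), at 13.3 and 25.6 in PS KO and 12.9 and 9.20 in RS KO. The Zfp820 promoter itself read 6.10 and 5.86 in PS KO and 3.91 in RS KO replicate 1, with no peak in RS KO replicate 2, so the distal region was the higher one in the 3 libraries where both were called. Beside Zfp706, on chromosome 15, 4 of the 17 regions lay within 36948974 to 36984321, at 3.52 to 13.9. A region of the exon class covered the 3′ end of Zfp957 (chromosome 14, 79212122 to 79214895), at 9.91 and 5.86 in PS KO and 15.6 and 13 in RS KO. Inputs had 15 peaks naming a member gene in 16 libraries, none of the promoter class, and 6 of the 445 regions overlapped an input peak, 5 of them at Zfp709 and 1 at Zfp827.

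The genotype comparison asked whether loss of Scml2 changed the mark at these genes in spermatogonia, and none of the member regions passed the test. Regions with a peak in all 8 spermatogonial libraries were compared as log2 values from which the median of the library had been subtracted, with stage as a covariate (limma, Benjamini-Hochberg adjusted p under 0.05). Of 83 member regions, 69 of them of the promoter class, 0 passed, and the background was 0.0% of 9585 regions. At an unadjusted p under 0.05, 6 of 83 (7.23%) and 5.24% of all regions differed. The median log2 difference was 0.01 for members and -0.04 for all. The smallest p belonged to a region at the shared start of Zfp758 and Zfp944 (22361447 to 22362227) and to the promoter of Zfp747. The former read 11.5 and 7.84 in Thy1+ WT, 12 and 9.92 in c-Kit+ WT, 12.7 and 9.59 in Thy1+ KO and 7.57 and 7.58 in c-Kit+ KO, and its difference was -0.43 ± 0.16 (SE; adjusted p = 0.840 by limma). Genotypes overlapped there, and the lowest values were those of c-Kit+ KO cells.

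Zfp747 read 7.86 and 6.03 in Thy1+ WT, 6.27 and 4.96 in c-Kit+ WT, 17.2 and 8.95 in Thy1+ KO and 9.46 and 6.41 in c-Kit+ KO, a difference of 0.39 ± 0.14 (SE; adjusted p = 0.840 by limma). The third was the intergenic region of Zfp944 (22314275 to 22315293), which holds a RefSeq start of Gm7072, with 0.37 ± 0.16 (SE; adjusted p = 0.888 by limma). In calls, 12 member genes had promoter peaks in more KO than WT spermatogonial libraries, 4 in fewer and 78 in equal numbers (12.8%, 4.26% and 83.0%), close to the 12.8%, 3.74% and 83.4% of 18814 genes. Among spermatogonial libraries, Zfp773, Zfp936 and Zfp941 (3.19%; 5.44% of all genes) were called in KO alone, each in 1 library of replicate 1, and 0 members in WT alone. A genotype by stage interaction was tested at the same 83 regions: 0 passed (background 0.0% of 9585; 5 members at an unadjusted p under 0.05). The smallest p was that of Zfp810, 0.96 ± 0.34 (SE; adjusted p = 0.998 by limma), with 12 ± 0.297 in c-Kit+ KO, 7.995 ± 0.786 in c-Kit+ WT, 8.90 ± 1.73 in Thy1+ KO and 8.78 ± 3.89 in Thy1+ WT (SD, n = 2).

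Between Thy1+ and c-Kit+ spermatogonia, which stand for the undifferentiated and the differentiating state, 1 of 83 member regions passed as higher and 0 as lower (background 1.09% of 9585, with 0.803% higher and 0.282% lower). This was the promoter of Zfp763 in the second chromosome 17 cluster, which rose in c-Kit+ cells by 0.69 ± 0.16 log2 units relative to the median region (SE; adjusted p = 0.0346 by limma). Its fold enrichment was 9.43 and 7.24 in Thy1+ WT and 11.6 and 10.2 in Thy1+ KO, against 16 and 9.92 in c-Kit+ WT and 14.7 and 11.1 in c-Kit+ KO. As deposited, the stages overlapped; after centring, all 4 c-Kit+ libraries were above all 4 Thy1+ libraries. The call was lost without any 1 of 5 libraries (c-Kit+ KO replicate 1 or 2, c-Kit+ WT replicate 1, Thy1+ KO replicate 1 or Thy1+ WT replicate 1; adjusted p up to 0.131), without centring (0.42; adjusted p = 0.550) and with regions of missing peaks added at the library's lowest value (adjusted p = 0.0511), and the adjusted p by limma ran from 0.0155 to 0.550 over the alternatives. Leydig markers moved with stage: the 4 summed to 0 in Thy1+ WT, 0 to 4.05 in Thy1+ KO, 12.4 to 13.1 in c-Kit+ WT and 5.83 to 16.6 in c-Kit+ KO, mainly from Star and Cyp11a1, with Cyp17a1 at no peak. Their part in the result was not tested. Next in order were the intron region of Zfp790 (0.62 ± 0.17 SE, adjusted p = 0.0627 by limma) and the promoter of Zfp935 (0.55 ± 0.16 SE, adjusted p = 0.0909 by limma), neither past the threshold.

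From c-Kit+ spermatogonia to pachytene spermatocytes, deposited fold enrichment rose in the library medians, and relative to them 11 of 15 regions in the chromosome 17 clusters were lower. The mean of the library medians was 1.08 log2 units higher in PS KO than in c-Kit+ KO over the 12501 regions called in all 4 libraries, and the values tested were centred on these medians, so that "lower" here means behind the median region. Of 96 member regions, 7 were higher and 28 lower in PS (36.5%; background 31.9%, with 6.83% higher and 25.1% lower). The pooled background joins unlike classes. Of 78 member promoter regions, 6 were higher and 23 lower (7.69% and 29.5%), beside 8.23% and 15.1% of all promoter regions. Of 18 other member regions, 1 was higher and 5 lower (5.56% and 27.8%), beside 2.86% and 53.4% of all other regions. The median log2 difference was -0.22 for members and -0.17 for all regions. Without centring, an alternative chosen after seeing the data, 62 member regions were higher and 0 lower, beside 8841 and 99 of all 12501 regions. With quantile normalization 1 member region was higher and 2 lower, beside 386 and 398 of all. Of the 28 lower regions, 12 had both deposited PS values above both c-Kit+ values, 15 overlapped and 1, Zfp820, lay below. The call of lower regions thus holds relative to other regions and not in the deposited values.

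The relative decrease was uneven among clusters. All 5 tested regions of the second chromosome 17 cluster passed as lower (median -0.75, from -0.95 to -0.63), as did 6 of 10 in the larger one (median -0.68) and 3 of 4 in the chromosome 13 cluster of 3 genes (median -0.84), and none of these 19 was higher. Among all regions tested on chromosome 17, 22.6% were lower, and on chromosome 13, 27.4%. Of promoter regions alone, 13.5% and 20.5% were lower, and only 11.3% and 4.78% were higher. By contrast, the cluster of 6 on chromosome 13 had 1 of 6 lower, the chromosome 8 cluster of 6 had 1 of 6, and the other chromosome 8 cluster 0 of 3. The differences between clusters were not tested.

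**Figure D3:**
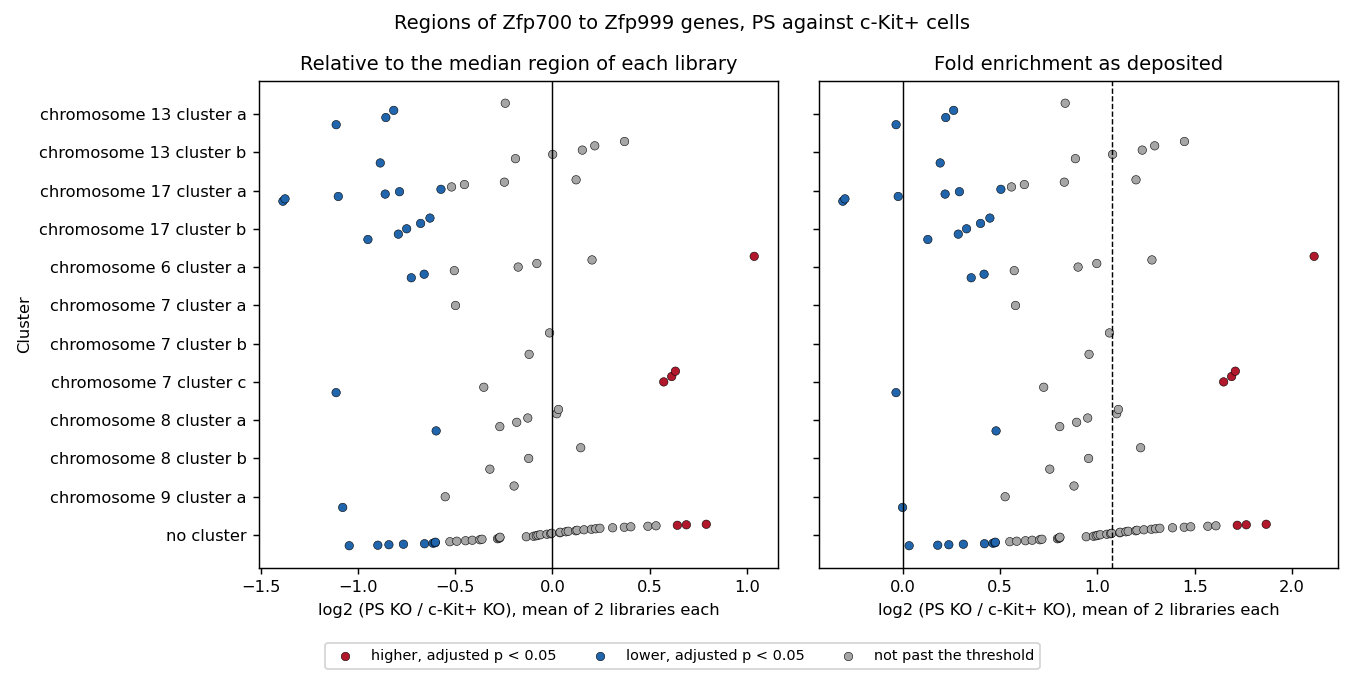
Log2 difference of PS KO and c-Kit+ KO at the 96 member regions (points) by cluster, left relative to the median region and right in the deposited fold enrichment; colours give the limma call on the centred values, and the dashed line marks the 1.08 difference of the library medians. The chromosome 17 clusters lie to the left of 0 in the centred values apart from 1 region, and spread from slightly below 0 upward in the deposited values.

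Zfp945, at the end of the larger chromosome 17 cluster, had the largest relative decrease. Its promoter read 12.3 and 7.58 in c-Kit+ KO and 8.77 and 6.93 in PS KO, -1.39 ± 0.21 log2 units (SE; adjusted p = 0.000558 by limma). The deposited values of the stages overlapped. At Zfp820 of the same cluster, 6.62 and 8.16 in c-Kit+ KO stood against 6.10 and 5.86 in PS KO (-1.37 ± 0.23, adjusted p = 0.000861 by limma), the 1 member region with both PS values below both c-Kit+ values. The intergenic region of Zfp947 (22080650 to 22081576) read 7.57 and 5.83, then 5.34 and 8.00 (-1.10 ± 0.21, adjusted p = 0.00206 by limma). Zfp934 on chromosome 13 read 5.2 and 5.25, then 6.10 and 4.27 (-1.11 ± 0.23, adjusted p = 0.00305 by limma). Zfp764, on chromosome 7, read 6.15 and 5.83, then 5.34 and 6.40 (-1.11 ± 0.20, adjusted p = 0.00131 by limma). In each of these 3 the deposited values of PS and c-Kit+ cells overlapped.

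The 7 regions called higher in PS also had both deposited PS values above both c-Kit+ values. This is no separate support for the calls, because the library medians were 1.08 log2 units higher in PS KO. Of the 28 regions called lower, 12 had this order too. The Zfp956 promoter (chromosome 6 cluster) read 7.57 and 5.25 in c-Kit+ KO and 22.5 and 33.1 in PS KO, 1.04 ± 0.21 beyond the median region (SE; adjusted p = 0.00295 by limma). It was between 4.19 and 6.27 in the 4 WT libraries, 11.6 in Thy1+ KO replicate 1, without a peak in Thy1+ KO replicate 2, and 15.6 and 14.6 in RS KO. Zfp800 rose from 9.93 and 7.0 to 26.7 and 34.7 (0.79 ± 0.20, adjusted p = 0.00909 by limma) and Zfp707 from 5.68 and 5.83 to 15.6 and 22.9 (0.64 ± 0.23, adjusted p = 0.0443 by limma). Zfp711 lies on the X chromosome, which is transcriptionally silenced in pachytene cells. Its promoter read 8.04 and 5.25 in c-Kit+ KO, 19.4 and 25.1 in PS KO and 13.7 and 14.6 in RS KO (PS against c-Kit+, 0.69 ± 0.20, adjusted p = 0.0206 by limma). The other 3 were neighbours on chromosome 7, in the cluster that holds Zfp764: the Zfp771 promoter, an exon region of Zfp771 and the Zfp768 promoter, which read 12.8 and 9.91, then 34.3 and 36.3. The Zfp771 and Zfp768 promoters fall outside the 5 with the largest change and were named after their values were seen. Within this cluster, 3 of 5 tested regions were higher and 1, Zfp764, was lower. Among all regions tested on chromosome 7, 21.7% were lower. Of the promoter regions there, 8.85% were higher and 11.7% lower.

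**Figure D4:**
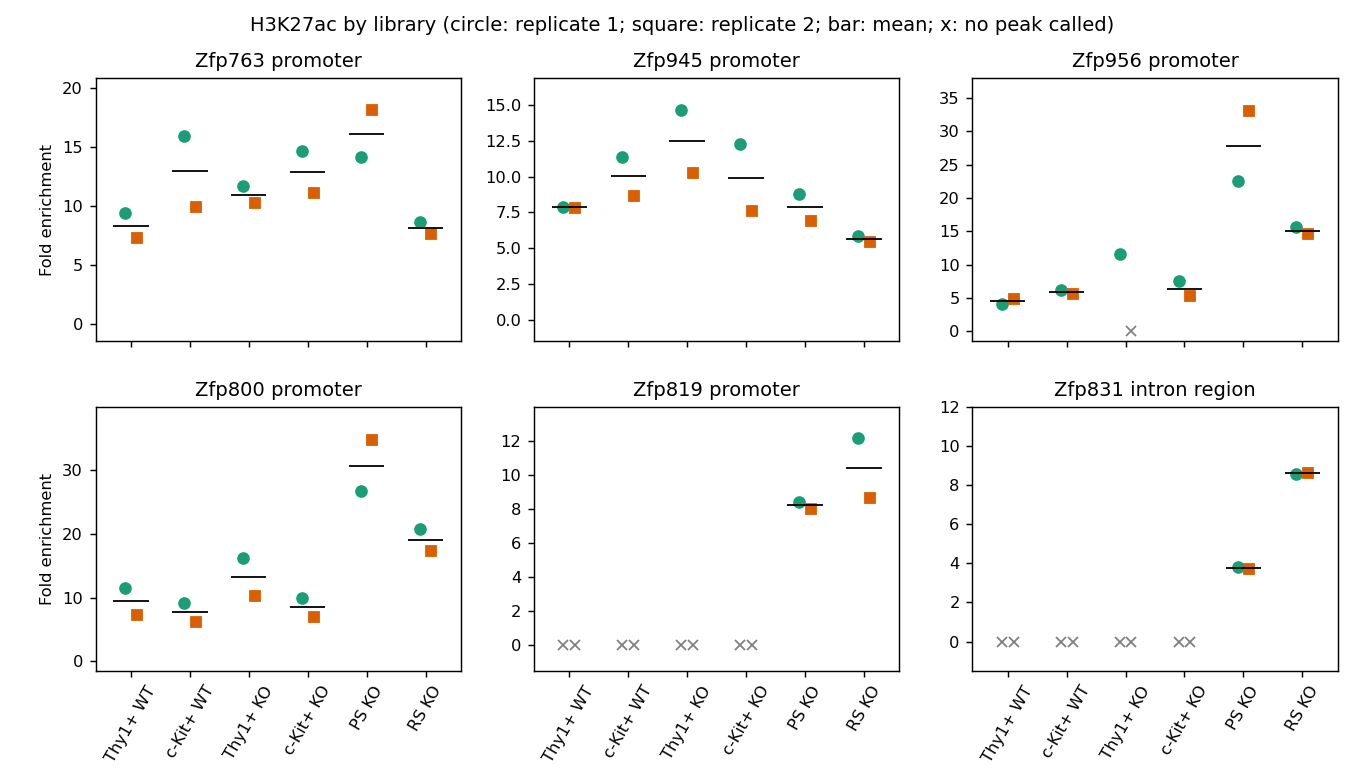
Deposited fold enrichment by library at 5 promoters and 1 intron region; circles are replicate 1, squares replicate 2, bars the mean of both, and crosses at 0 libraries with no called peak. Zfp956 and Zfp800 peak in PS KO, Zfp945 is lowest in RS KO, and Zfp819 and the Zfp831 region have values in the 4 adult libraries alone.

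These calls rest on 2 libraries per group. Without c-Kit+ KO replicate 2 every call was lost, among members and among all regions of the fit. Without PS KO replicate 1 or 2, fewer regions passed in both sets. Under quantile normalization Zfp956 and Zfp945 kept their calls (adjusted p = 0.0453 and 0.0396 by limma), while the other 8 regions named here with the largest changes lost theirs. Markers of somatic cells moved with this comparison: promoters of all 5 Sertoli markers were called in both PS KO libraries, with a summed fold enrichment of 45.4 to 59.2, against 9.91 to 25.5 in c-Kit+ KO, where Cldn11 had no peak; 3 of 4 Leydig markers summed to 22.5 to 25.1 against 5.83 to 16.6, with Cyp17a1 at no peak in either. Endothelial markers summed to 14.5 to 16.5 in PS KO against 6.41 to 6.62, with 2 of 3 called and Kdr at no peak, and macrophage markers to 4.80 to 9.15 against 0, with Adgre1 at no peak. Peritubular markers overlapped, at 0 to 4.80 in PS KO against 0 to 10.4, with 0 called in both libraries of either group. All these sums are of deposited values, whose library medians were 1.08 log2 units higher in PS KO. The part of these cells in the result was not tested, and in such bulk samples fewer cells with the mark and less of it per cell cannot be told apart. Of 6 spermatocyte markers, 5 were called in both PS libraries (Ccna1 in neither), and Ldhc and Piwil1 in no spermatogonial library, whereas Sycp1, Sycp3 and Spo11 had peaks in some of these, up to 16.7 for Sycp1 in Thy1+ KO replicate 1. Of 8 spermatogonial markers, 1 to 3 were called in both libraries of each spermatogonial group and 5 in both PS libraries, and Gfra1 had a peak in Thy1+ KO replicate 1 alone.

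From PS to RS, the 5 member promoter regions that passed the test were lower. Deposited fold enrichment was below both PS values in both RS libraries at 47 of the 67 promoters called throughout (70.1%; 70.6% of 9307 such genes), and above them at 1. Relative to the median region, 12 of 123 member regions passed, 5 higher and 7 lower (9.76%; background 20.2%, with 12.4% higher and 7.79% lower). None of 80 member promoter regions was higher and 5 (6.25%) were lower, beside 4.70% and 5.31% of all promoter regions. Of 43 other member regions, 5 (11.6%) were higher and 2 (4.65%) lower, beside 21.4% and 10.7% of all other regions, so that higher calls lay mostly away from promoters in the whole set too. All 12 had non-overlapping deposited values in the called direction. This is no separate support, because the calls were made on the same values, and the share over all called regions was not computed.

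The promoters that fell were Zfp952 and Zfp763 of the second chromosome 17 cluster, Zfp947 of the larger one, and Zfp879 and Zfp846 outside clusters. Zfp879 and Zfp846 fall outside the 5 with the largest change and were likewise named after their values were seen. Zfp952 read 10.7 and 15.5 in PS KO and 5.87 and 6.49 in RS KO (-0.86 ± 0.24, adjusted p = 0.0325 by limma). Zfp947 read 5.72 and 7.46, then 3.13 and 3.25 (-0.84 ± 0.22, adjusted p = 0.0252 by limma), and its values in RS KO were the lowest called in those libraries. Zfp763 read 14.1 and 18.1, then 8.61 and 7.57 (-0.79 ± 0.20, adjusted p = 0.0243 by limma). This promoter was called in 3 comparisons. It was higher in c-Kit+ than in Thy1+ cells, behind the median region in PS, and lower in RS than in PS. These calls share libraries and are not independent. The c-Kit+ KO libraries entered the tests of c-Kit+ against Thy1+ and of PS against c-Kit+. The PS KO libraries entered those of PS against c-Kit+ and of RS against PS. The call of c-Kit+ against Thy1+ was also lost when certain single libraries were left out, as given above. Beyond the promoters, the intron region of Zfp790 read 14.1 and 15.5, then 9.78 and 5.41 (-0.83 ± 0.23, adjusted p = 0.0330 by limma), and an intergenic region near Zfp930 (69166989 to 69168616) 11.4 and 16, then 8.21 and 5.95 (-0.76 ± 0.22, adjusted p = 0.0359 by limma).

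The 5 regions that were higher in RS all lay away from promoters. A region in an intron of Zfp831 (chromosome 2, 174670033 to 174671218), 27091 bp from the start, read 3.81 and 3.73 in PS KO and 8.61 and 8.66 in RS KO (1.39 ± 0.20, adjusted p = 0.00788 by limma), had no peak in spermatogonia, and belongs to a gene with no promoter peak in any library. An intron region of Zfp821 (109714138 to 109715353) read 5.34 and 4.27, then 11 and 8.66 (1.22 ± 0.21, adjusted p = 0.00884 by limma), while the Zfp821 promoter read 24.4 and 24.0 in PS KO and 25 and 26 in RS KO. The exon region at the 3′ end of Zfp957 rose by 1.10 ± 0.27 (adjusted p = 0.0214 by limma). An intergenic region near Zfp706 (36950368 to 36951035) read 6.10 and 4.80, then 10.2 and 7.57 (0.89 ± 0.21, adjusted p = 0.0199 by limma). An intergenic region of Zfp709 also passed (1.11 ± 0.23, adjusted p = 0.0130 by limma), but it overlaps a peak of the input libraries.

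**Figure D5:**
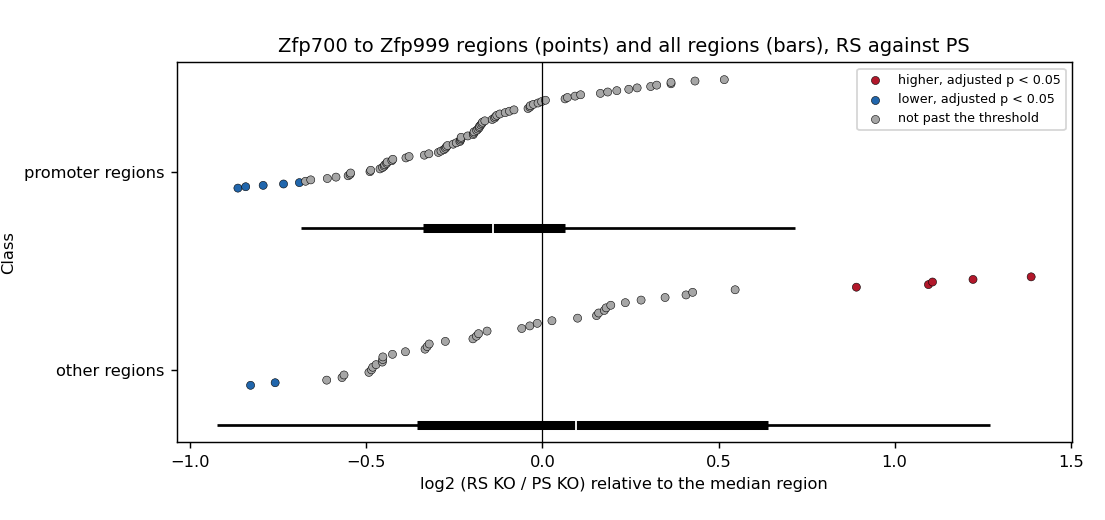
Log2 difference of RS KO and PS KO relative to the median region for the 80 promoter and 43 other member regions (points, ordered by value) and for all regions of the class (thin bar, 5th to 95th percentile; thick bar, quartiles; white tick, median). No promoter region of a member is called higher, and the 5 called higher are of other classes, in which higher calls are also more frequent over all regions (21.4% against 4.70%).

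Without PS KO replicate 2 every call in this comparison was lost, among members and among all regions of the fit. Without RS KO replicate 1, fewer regions passed in both sets of this comparison. Macrophage markers moved with it: Csf1r and Cd68 were called in both RS libraries, with a summed fold enrichment of 18.9 to 24.3 against 4.80 to 9.15 in PS KO, while Adgre1 had no peak. Sertoli markers summed to 13.5 to 16.8 in RS KO, with 3 of 5 called, below the PS values given above, and Leydig markers to 4.30 to 5.41, with 1 of 4 called. The part of these cells in the result was not tested. Spermatid markers were called in adult cells of both kinds (5 of 6, summing to 94.7 to 105 in RS KO and 50.1 to 86.2 in PS KO) and in no spermatogonial library.

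Co-repressor genes through which KRAB zinc finger proteins act were examined beside them, together with Zfp57, itself a KRAB zinc finger gene. With Zfp57 the list held 15 genes, among them Trim28, Setdb1 and the heterochromatin protein genes Cbx1, Cbx3 and Cbx5. In the spermatogonial fit 14 of them had a tested region, and Setdb1 had none. No region passed there for genotype, stage or their interaction (0 of 15 regions each, beside 0.0%, 1.09% and 0.0% of all regions). None passed for RS against PS, where all 15 genes were tested (0 of 19 regions, beside 20.2% of all regions and 10.0% of all promoter regions). In PS against c-Kit+ cells, 3 of 16 regions were higher and 1 lower relative to the median region. Beside them stood 6.83% and 25.1% of all regions, and 8.23% and 15.1% of all promoter regions. The median of the 16 was 0.24, against -0.17 for all regions and -0.06 for all promoter regions. The 3 higher regions were at Trim28 (0.60 ± 0.19, adjusted p = 0.0295 by limma), Chd4, which encodes the NuRD remodeler (0.55 ± 0.20, adjusted p = 0.0460 by limma), and Uhrf1, a DNA methylation maintenance factor (0.74 ± 0.19, adjusted p = 0.00958 by limma). Zfp57, a KRAB zinc finger gene that protects imprints, was the lower one (-0.76 ± 0.20, adjusted p = 0.00959 by limma). The lower region was thus not at a co-repressor gene.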

How the data were processed

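Peaks were taken from the peak table of each library, so replicates were not pooled. Per the submitters' processing notes, Bowtie and MACS2 were used with build mm10; versions, settings and the handling of reads that map to several near-identical zinc finger genes are not given in the sources used here. Per the file headers, each line gives a peak, its nearest RefSeq transcript, a summit and a class. The deposited signal height is a whole number, the deposited fold enrichment is a ratio of height to a background that was constant within each library, while −log10 p and −log10 q were deposited for the same summit. Read depth is unknown; the background height (0.564 to 1.62 in H3K27ac libraries) was used as its relative indicator.

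Here, peaks were reduced to their highest summit and merged over the libraries compared (overlap of at least 1 bp). Regions called in every library of a comparison were tested over the whole table as log2 fold enrichment centred on the library median with limma 3.58.1 (R 4.3.3), in fits of the 8 spermatogonial libraries, of c-Kit+ KO and PS KO, and of PS KO and RS KO, with p adjusted by Benjamini-Hochberg over all regions. Values below the calling threshold were not used here. The procedure was tested on simulated data. Named regions were up to 5 higher and 5 lower member regions per test with the largest passing change, or the 3 smallest p where fewer than 3 passed, and the extreme promoters of each cluster. The gene members and lists were chosen with earlier results of these data known. Libraries are not stated to come from separate animals, so p-values measure only the spread between libraries. The Scml2 promoter had a peak in 4 KO libraries and no WT library, which does not test the genotype. Where the labels list genes by comma, the start was resolved by RefSeq extents (15 genes). Tables were built in Python 3.11.15 (pandas 2.3.3, numpy 2.4.6) and plotted with matplotlib 3.10.9.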

Additional observations from a re-analysis of the deposited data

How the results depend on the processing

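The count of member regions that passed was 0 for genotype and for the interaction under all alternatives run with limma (6 and 5 regions at an unadjusted p under 0.05 as reported). For c-Kit+ against Thy1+ cells the 1 region became 2 with regions overlapping input peaks left out and 2 with the replicate block, 0 without centring, and 0 to 1 without single libraries. For PS against c-Kit+ cells the count of 35 became 3 with quantile normalization, 62 when regions called in 1 group were added and missing values took the library's lowest, 62 without centring (chosen after seeing the data), and 0 to 30 without single libraries. For RS against PS the count of 12 became 5 with peaks of −log10 q of at least 5, 47 when missing values were filled in that way (35 higher), 30 without centring, and 0 to 13 without single libraries; there the lone library of a group is assumed to vary like the others. The replicate block gave 32 and 12 in these comparisons; same-numbered libraries correlated at 0.0004 to 0.16, so the numbers were not taken to pair them. Counts of genes in clusters (55) and with a promoter peak throughout (67) stayed within 1.5 times under all alternatives. For single named regions, 166 of 189 values under alternatives that kept all libraries stayed on the same side of the threshold. Of the others, 21 lost the call and 2 gained it. The 166 include named regions not past the threshold as reported, which counted as unchanged whenever they stayed uncalled. Without 1 library, calls were also lost and none was gained. Among regions called as reported, 0 reversed direction. For named regions not past the threshold, a change of direction was not counted. Quantile normalization moved the median PS difference of all regions from -0.17 to -0.01. The depth limits calls of weak peaks.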
